A study of Rattus norvegicus with 11 samples.

Results

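A set of 8 genes widely used to recognise monocytes and macrophages was followed in white blood cells (WBCs) of rats with collagen-induced arthritis (CIA). They were Csf1r, Cd68, Adgre1, Lyz2, Vcan, Spn, Nr4a1 and Klf4. They were chosen by gene symbol, and each symbol stood on a single row of the deposited table, so these were 8 of 32623 genes. All samples came from peripheral blood leukocytes of male Wistar rats, which the study's methods give as 7 weeks old. Arthritis was induced with an emulsion of type II collagen in incomplete Freund's adjuvant (IFA-CII), and a boost was given on day 7. Blood of 4 CIA rats was drawn first near day 8, at the Nampt++ status, and a second time near day 14, at the Nampt+ status, with sampling days varying within about 2 days, and 3 normal healthy rats served as controls. The statuses were assigned by the authors from the PCR level of Nampt, so the samples of a rat differ in day as well as in status, and day and status cannot be told apart.

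Monocytes circulate in blood and can become macrophages in tissues, and Csf1r is the receptor through which colony stimulating factor 1 keeps this lineage alive. Rat blood monocytes are divided by the surface protein CD43, the product of Spn, into a classical subset with little of it and a non-classical subset with much of it. In mice the nuclear receptor Nr4a1 is needed for the non-classical subset, while Vcan is a proteoglycan made mainly by classical monocytes. None of these genes belongs to monocytes alone: Lyz2 and Cd68 are also made by neutrophils, Spn by T cells and neutrophils, and Nr4a1 and Klf4 are induced within minutes of many stimuli.

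The WBCs were whole preparations after lysis of red cells, so fewer monocytes and less RNA of a gene per monocyte cannot be told apart. Each sample held between 65340027 and 85819418 counts, of which 11 haemoglobin genes took between 6.84% and 42.8%. The Nampt+ sample of rat 2 stood apart, with the highest haemoglobin share and the lowest TMM scaling factor (0.577, against 0.783 to 1.3 in the other samples). In FPKM, this sample had all 8 genes below their median over the 11 samples. It was kept in the comparisons, and results that rest on it are given without it as well. Of the labelled cell type, markers of neutrophils, T cells, B cells and NK cells were present in every sample. Of 11 genes that mark macrophages resident in tissues, 9 stayed under 1 FPKM in every sample, namely Mrc1, Cd163, Marco, C1qa, C1qb, C1qc, Mertk, Siglec1 and Vsig4. FPKM, the fragments of a gene per kilobase of its length and per fixed number of mapped fragments, is the scale of all levels given here, while fold changes come from a fit of the counts.

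Promoter sequences are shown for the 5 genes in which the PU.1 core or the motif like the cyclic AMP response element was found, so that the matches can be seen in place. The sequences are from RefSeq, build GRCr8, and cover the 250 bases before the annotated start of the gene. A promoter was matched for 7 of the 8 genes, and none for Spn. In the first 4 the capitals mark GAGGAA or its reverse complement TTCCTC, the core bound by PU.1, the factor encoded by Spi1 that sets up the myeloid lineage. In Nr4a1 the capitals mark TGCGTCA, a motif like the cyclic AMP response element. Both strands were searched.
Csf1r, chr18:56834129-56834378, plus strand: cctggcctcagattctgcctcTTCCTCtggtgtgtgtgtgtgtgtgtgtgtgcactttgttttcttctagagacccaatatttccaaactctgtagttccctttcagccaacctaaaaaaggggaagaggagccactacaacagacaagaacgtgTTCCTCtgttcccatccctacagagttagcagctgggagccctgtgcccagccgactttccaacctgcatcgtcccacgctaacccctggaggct
Cd68, chr10:54882442-54882691, minus strand: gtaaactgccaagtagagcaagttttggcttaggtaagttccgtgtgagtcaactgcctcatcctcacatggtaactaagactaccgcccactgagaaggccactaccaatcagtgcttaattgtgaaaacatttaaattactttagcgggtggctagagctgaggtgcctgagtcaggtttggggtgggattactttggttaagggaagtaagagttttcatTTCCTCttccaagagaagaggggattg
Adgre1, chr9:2329190-2329439, plus strand: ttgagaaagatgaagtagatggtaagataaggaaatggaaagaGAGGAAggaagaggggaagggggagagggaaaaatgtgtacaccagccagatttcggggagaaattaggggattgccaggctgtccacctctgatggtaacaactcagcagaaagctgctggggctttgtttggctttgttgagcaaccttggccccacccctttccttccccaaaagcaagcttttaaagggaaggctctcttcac
Lyz2, chr7:54798012-54798261, minus strand: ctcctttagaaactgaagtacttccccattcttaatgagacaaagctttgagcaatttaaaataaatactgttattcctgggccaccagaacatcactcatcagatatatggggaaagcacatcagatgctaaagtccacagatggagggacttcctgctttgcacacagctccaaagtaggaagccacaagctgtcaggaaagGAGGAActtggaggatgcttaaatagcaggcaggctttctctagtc
Nr4a1, chr7:134259888-134260137, plus strand: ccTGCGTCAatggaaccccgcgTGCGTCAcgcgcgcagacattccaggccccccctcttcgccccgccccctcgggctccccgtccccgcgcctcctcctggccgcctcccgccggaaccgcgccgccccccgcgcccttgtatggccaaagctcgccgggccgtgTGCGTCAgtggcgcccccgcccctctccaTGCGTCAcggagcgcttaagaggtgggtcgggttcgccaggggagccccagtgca

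The PU.1 core was found 229 and 95 bases before the start of Csf1r, and once each in Cd68 (27 bases), Adgre1 (207 bases) and Lyz2 (46 bases). It was not found in these windows of Klf4, Nr4a1 or either annotated promoter of Vcan. The core is short, and 23.3% of 33469 rat promoters held it in a window of the same length. The motif TGCGTCA was found 4 times in Nr4a1, at 248, 228, 84 and 55 bases before the start. It was in 1.66% of all promoters, and Nr4a1 was the single promoter with 3 or more. The other motifs searched were TGANTCA (AP-1), present in 6.34% of promoters and found 2 times in Cd68; TTGCNNAA (C/EBP), present in 9.22% and found in Lyz2 and Adgre1; and GGGCGG (GC box), present in 30.5% and found in Nr4a1, Cd68 and Vcan. No match of 1 motif overlapped a match of another. These are matches of letters, not sites shown to be bound.

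The 8 genes spanned a wide range of levels. Lyz2 was by far the most abundant at 8098 ± 3159 FPKM (SD over 11 samples from 7 rats). Nr4a1 followed at 183 ± 37.3 FPKM, then Cd68 at 60.3 ± 25.8, Csf1r at 54.3 ± 20.7, Klf4 at 41.3 ± 13.6 and Spn at 38.2 ± 15.0 FPKM. Adgre1 at 11.4 ± 5.23 and Vcan at 7.19 ± 5.84 FPKM were lowest. The order from Cd68 to Spn lies within the spread of those genes, as does that of Adgre1 and Vcan. Nr4a1 lay above Cd68 in every sample, by at least 1.72 times.

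Csf1r, the receptor, was detected in every sample. Its gene (ENSRNOG00000018414) lies on chromosome 18 from 56414488 to 56457869 in the deposited table, whose build is not given in the sources used here. In controls 1 to 3 its level was 33.9, 42.1 and 68.1 FPKM. In Nampt++ samples of rats 1 to 4 it was 45.7, 76.0, 51.8 and 88.5 FPKM, and in Nampt+ samples of the same rats 72.3, 15.9, 51.2 and 52.0 FPKM. The groups overlapped throughout, with the lowest value of all in the Nampt+ sample of rat 2 and the highest in the Nampt++ sample of rat 4.

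Cd68 encodes a glycoprotein of lysosomes that macrophages carry in large amounts. Its gene (ENSRNOG00000037563) lies on chromosome 10 from 56268720 to 56270640. Controls had 35.4, 56.8 and 53.9 FPKM. The Nampt++ samples had 40.2, 71.8, 71.7 and 122 FPKM, and the Nampt+ samples 61.4, 22.2, 64.1 and 63.9 FPKM. In FPKM the order of samples was much as for Csf1r, again with rat 4 at Nampt++ highest and rat 2 at Nampt+ lowest. With counts scaled by the TMM factor rat 2 at Nampt+ was not the lowest in Cd68.

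Adgre1 encodes the adhesion receptor known as the F4/80 antigen, a classical macrophage marker of rodents. Its gene (ENSRNOG00000046254) lies on chromosome 9 from 9431860 to 9585865, on the minus strand in the deposited table and on the plus strand in GRCr8. The 3 controls were alike at 9.56, 9.69 and 11.4 FPKM. The CIA samples were far more spread, with 3.89, 17.2, 12.8 and 20.3 FPKM at Nampt++ and 15.4, 2.62, 13 and 10.1 FPKM at Nampt+. Both groups therefore reached above and below the controls. Its relative Adgre4 spread alike, from 1.34 to 10.6 FPKM, while Adgre5, which leukocytes of most kinds carry, was much higher at 232 ± 99.8 FPKM (SD, n = 11).

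Lyz2 encodes lysozyme, an enzyme that breaks bacterial cell walls. Its gene (ENSRNOG00000005825) lies on chromosome 7 from 60335969 to 60341264. Controls had 5507, 10254 and 3978 FPKM. The Nampt++ samples had 9967, 5409, 12416 and 9059 FPKM, and the Nampt+ samples 5143, 6373, 7480 and 13492 FPKM. High and low samples were found in every group, and they were not those of Csf1r. The neighbouring lysozyme gene Lyc2, at a mean of 121 FPKM, is closely related and could share reads with Lyz2.

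Vcan encodes versican, a proteoglycan of the extracellular matrix. Its gene (ENSRNOG00000029212) lies on chromosome 2 from 18490102 to 18565842. Controls had 1.19, 9.56 and 2.05 FPKM, so control 2 was far above the other two. The Nampt++ samples had 9.39, 3.21, 9.20 and 20.2 FPKM, and the Nampt+ samples 3.29, 2.29, 5.39 and 13.3 FPKM. Vcan was the most variable of the 8 genes, with the highest sample 17.0 times the lowest.

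Spn encodes CD43, the sialoprotein that divides the rat monocyte subsets. Its gene (ENSRNOG00000036711) lies on chromosome 1 from 198572999 to 198577226. Controls had 42.9, 29.1 and 47.2 FPKM, Nampt++ samples 22.8, 55.4, 35.7 and 47.9 FPKM, and Nampt+ samples 60.9, 10.9, 41.2 and 26.1 FPKM. The Nampt+ group held both the highest and the lowest value. In FPKM, the summed level of 7 T cell markers was also lowest in the Nampt+ sample of rat 2, at 315 FPKM against 419 to 1042 FPKM in the others. FPKM is not scaled by the TMM factor, which was 0.577 in that sample. With that scaling its T cell sum was not the lowest. The part of T cells in the level of Spn was not tested.

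Nr4a1 encodes a nuclear receptor. Its gene (ENSRNOG00000007607) lies on chromosome 7 from 142905758 to 142920216. On the FPKM scale it was the steadiest of the 8 genes in CIA rats. It had 211, 163, 177 and 210 FPKM at Nampt++ and 216, 167, 185 and 184 FPKM at Nampt+. The coefficient of variation was 12.7% and 11%, respectively. With counts scaled by the TMM factor, the Nampt+ sample of rat 2 was instead the highest of the 11 samples. The controls, at 241, 161 and 101 FPKM, spread more widely, with a coefficient of variation of 41.8%. Its relatives Nr4a2 and Nr4a3 were low, with means of 3.89 and 3.80 FPKM over the 11 samples.

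Klf4 encodes a zinc finger transcription factor of monocytes. Its gene (ENSRNOG00000016299) lies on chromosome 5 from 72283313 to 72287669. Controls had 67.2, 32.3 and 31.9 FPKM, Nampt++ samples 31.7, 38.4, 36.8 and 45.3 FPKM, and Nampt+ samples 59.2, 19.2, 48.6 and 43.8 FPKM. In FPKM, control 1 was the highest sample and the Nampt+ sample of rat 2 the lowest. With counts scaled by the TMM factor control 1 was still highest, but that sample of rat 2 was not the lowest. Klf4 and Nr4a1 shared their highest control, control 1.

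**Figure D1:**
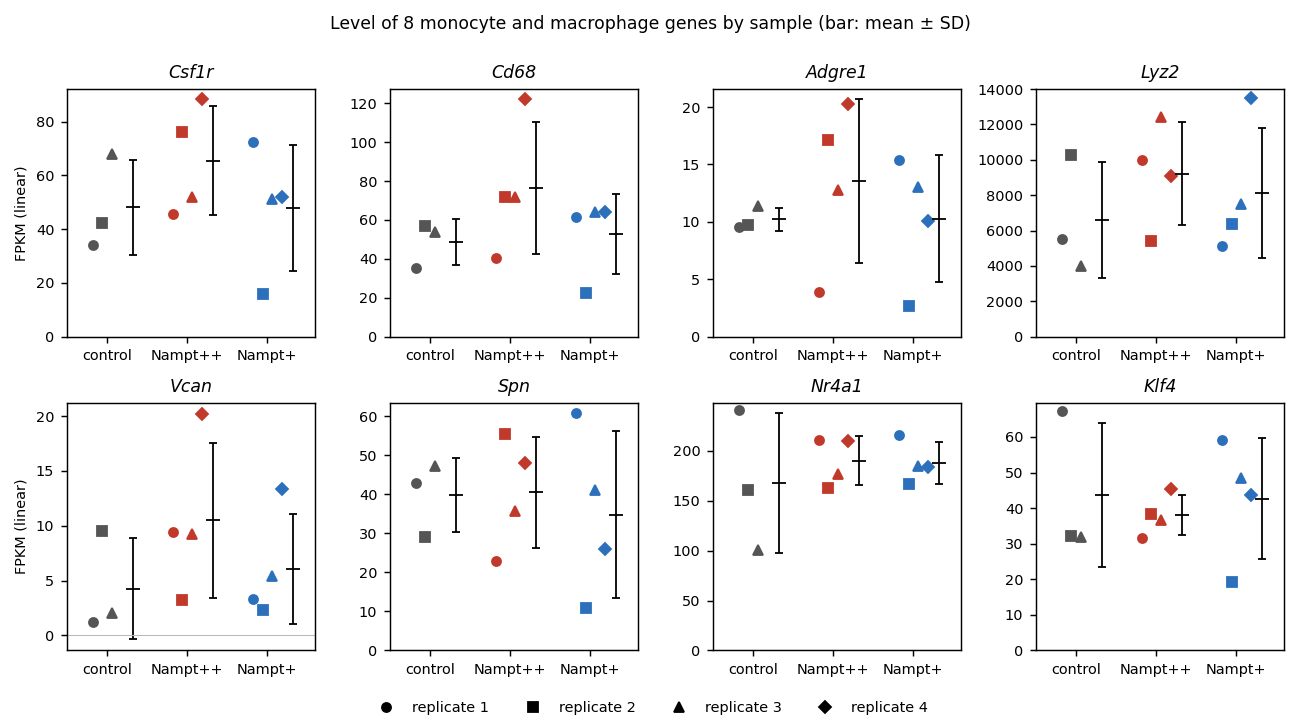
Level of each of the 8 genes in FPKM on a linear axis, with a point for each sample, coloured by group and shaped by replicate number, and a bar for the mean ± SD (n = 3 controls, n = 4 for each CIA group). The same shape in both CIA groups is taken as the same rat, by its number. The groups overlap for every gene, and the CIA samples of Nr4a1 lie close together between 163 and 216 FPKM.

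The samples differed from each other in 2 broad ways. In FPKM, the Nampt+ sample of rat 2 lay below the median for all 8 genes, with Adgre1, Spn, Csf1r and Cd68 lowest relative to their medians. The Nampt++ sample of rat 4 lay above the median FPKM for all 8. FPKM is not scaled by the TMM factor, which was 0.577 and 1.196 in these samples. With that scaling the first was above the median in Nr4a1 and Lyz2, and the second was below it in Nr4a1. In the remaining samples Lyz2 and Vcan often went one way and Spn, Adgre1 and Csf1r the other, as in control 2, in rat 1 at either sampling and in rat 2 at Nampt++.

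**Figure D2:**
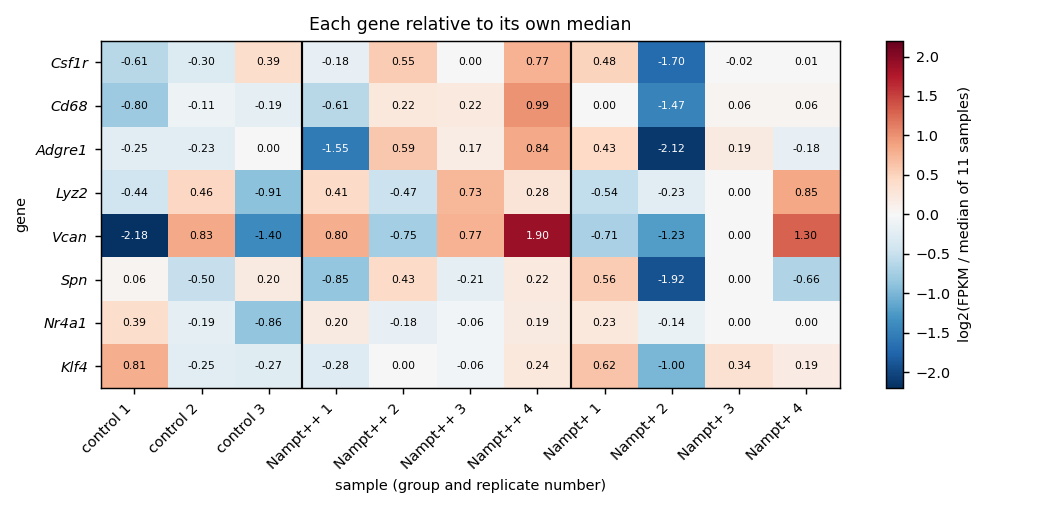
Each cell gives log2 of a gene's FPKM over its median of the 11 samples, by gene and sample, with red above and blue below the median and lines between the groups. The Nampt+ sample of rat 2 is blue in every row, and the Nampt++ sample of rat 4 is red in every row, with Vcan at 1.9.

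The first question was whether these genes changed between the Nampt++ and the Nampt+ status. None of the 8 was called (more than 2-fold apart in mean FPKM, that is a ratio beyond 2 or 0.5, with an unadjusted p under 0.05), where 0.642% of 11219 genes were. None had an unadjusted p under 0.05 by itself, against 2.28% of genes, and in none did the groups fail to overlap, against 0.41% of genes. Of the members, 6 had values below 0 and 2 above, with a median log2 fold change of -0.38 over the members and -0.0002 over all genes tested. Of the surface and lysosomal genes, Cd68 had a log2 fold change of -0.53 (SE 0.30), Csf1r of -0.49 (SE 0.32) and Adgre1 of -0.47 (SE 0.51). Vcan stood at -0.75 (SE 0.53), Spn at -0.28 (SE 0.42) and Lyz2 at -0.08 (SE 0.38). The transcription factors Klf4 and Nr4a1 stood at 0.17 (SE 0.20) and 0.12 (SE 0.23). The adjusted p by edgeR's quasi-likelihood test was 0.9996 for each, and the two-sided exact permutation p lay between 0.314 and 0.943, where the smallest possible was 0.029.

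Without the Nampt+ sample of rat 2 these log2 fold changes moved to -0.42 for Cd68, -0.31 for Csf1r, -0.24 for Adgre1 and -0.09 for Spn. Nr4a1 then stood at -0.10, so its direction turned without that sample. The count of called members stayed at 0, and that of all genes rose from 72 to 165.

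Within rats, matched by the number in the sample descriptions, the genes moved in different directions. In FPKM, Vcan was lower at Nampt+ than at Nampt++ in 4 of 4 rats, at 0.351, 0.716, 0.586 and 0.660 times the earlier level in rats 1 to 4. The two-sided exact sign-flip permutation p on FPKM was 0.125, the smallest that 4 rats allow. These within-rat ratios are not scaled by the TMM factor, which in rat 2 was 0.873 at Nampt++ and 0.577 at Nampt+. With that scaling Vcan was not lower at Nampt+ in rat 2, so 4 of 4 holds for FPKM alone. With the rat as a replicate block Vcan had an unadjusted p of 0.045 and an adjusted p of 0.9999 by edgeR, and its ratio of group means, 0.579, was not past the limit, so it was not called. Without the Nampt+ sample of rat 4 the unblocked fit called Vcan, at a log2 fold change of -1.34 and an unadjusted p of 0.0207. Lyz2 was at 0.516, 1.18, 0.602 and 1.49 times its earlier level, which goes both ways.

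Csf1r was at 1.58, 0.209, 0.988 and 0.587 times its earlier level in rats 1 to 4, and Cd68 at 1.53, 0.310, 0.894 and 0.522 times. Spn was at 2.67, 0.197, 1.15 and 0.543 times and Adgre1 at 3.95, 0.153, 1.02 and 0.495 times. All 4 of these genes were higher at the later sampling in rat 1 and lower in rats 2 and 4. Klf4 ranked the rats in the same order as Csf1r, at 1.87, 0.50, 1.32 and 0.967 times. Nr4a1 barely moved in FPKM within any rat, at 1.03, 1.02, 1.04 and 0.874 times. With counts scaled by the TMM factor it was higher at Nampt+ than at Nampt++ in rat 2, so this steadiness depends on the scale.

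The second question was whether CIA rats at Nampt++ differed from healthy controls. Its Nampt++ samples are also those of the first comparison, so opposite signs in these comparisons are not independent. No member was called, where 0.686% of 11219 genes were. None had an unadjusted p under 0.05, against 1.57% of genes, and in none did the groups fail to overlap, against 1.1%. Of the members, 7 had values above 0 and 1 below, with a median log2 fold change of 0.34 over the members and 0.0018 over all genes tested. Vcan stood at 0.96 (SE 0.86), Cd68 at 0.57 (SE 0.39), Csf1r at 0.45 (SE 0.31), Adgre1 at 0.38 (SE 0.50) and Lyz2 at 0.30 (SE 0.52). Nr4a1 at 0.08 (SE 0.36), Spn at 0.05 (SE 0.34) and Klf4 at -0.25 (SE 0.33) lay closest to 0. The adjusted p by edgeR was 0.9999 for each, and the exact permutation p lay between 0.229 and 1.0.

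Vcan was the single member past the limit on the ratio of means, though not the one with the lowest p. Its mean was 10.5 ± 7.06 FPKM (SD, n = 4) at Nampt++ and 4.26 ± 4.60 FPKM (SD, n = 3) in controls, a ratio of 2.46, with an unadjusted p of 0.301 by edgeR. Control 2, at 9.56 FPKM, decided this value. Without it the log2 fold change was 2.80, with an unadjusted p of 0.0029 and an adjusted p of 0.546, and Vcan was called, while the number of called genes rose from 77 to 462. The limma fit on log2(FPKM + 1) also called Vcan, with an unadjusted p of 0.0393 and an adjusted p of 0.9998.

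The last comparison set Nampt+ samples against controls, which are also the controls of the comparison above. No member was called, where 0.497% of 11269 genes were, none had an unadjusted p under 0.05, against 0.87%, and none failed to overlap, against 0.444%. Of the members, 4 had values above 0 and 4 below, between -0.24 (SE 0.38) for Spn and 0.20 (SE 0.56) for Lyz2. The median was -0.02 over the members and -0.0027 over all genes tested. Csf1r, Cd68 and Adgre1 had nearly equal means in both groups, with ratios of mean FPKMs of 0.996, 1.09 and 1.01. Without control 2 Vcan was called at a log2 fold change of 2.03 and an unadjusted p of 0.00975, where the value with all samples was 0.18 (SE 0.84).

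**Figure D3:**
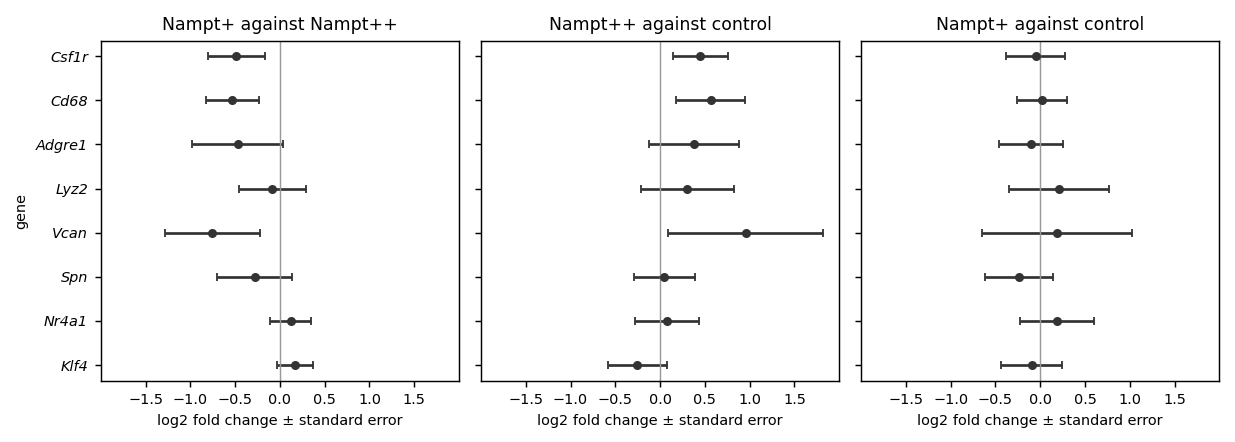
Log2 fold change of each gene with its standard error from edgeR's quasi-likelihood fit on counts, in a panel for each comparison, with the first named group against the second. The panels with controls share their 3 controls. The first and second panels share the Nampt++ samples, so opposite signs in them are not independent. The values of Csf1r, Cd68 and Vcan lie below 0 in the first panel and above 0 in the second, and no member was called in any panel.

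Ratios within a sample do not depend on how that sample was scaled. Against Csf1r, Cd68 and Spn kept the narrowest ratios, from 0.792 to 1.4 and from 0.50 to 1.27 over the 11 samples. Adgre1 lay between 0.165 and 0.282 times Csf1r except in the Nampt++ sample of rat 1, where it was 0.0851 times. The ratios of Vcan, Nr4a1 and Lyz2 were wide, with the highest 8.52, 7.06 and 6.85 times the lowest.

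Klf4 was the single member whose ratio to Csf1r did not overlap between Nampt++ and Nampt+. It was 0.694, 0.505, 0.710 and 0.512 times Csf1r at Nampt++ and 0.820, 1.21, 0.949 and 0.842 times at Nampt+. The ratio was higher at Nampt+ in each rat, while controls, at 1.98, 0.766 and 0.469, covered both groups. Of all genes tested, 4.49% had ratios to Csf1r without overlap, and 503 of these 504 were higher at Nampt+, so many genes besides Klf4 moved in this way relative to Csf1r. With Cd68 as the reference the Klf4 ratios overlapped, from 0.370 to 0.789 at Nampt++ and from 0.685 to 0.964 at Nampt+. No member's ratio to Csf1r stood apart between Nampt++ samples and controls, where 4.21% of genes did, or between Nampt+ samples and controls, where 0.355% did.

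**Figure D4:**
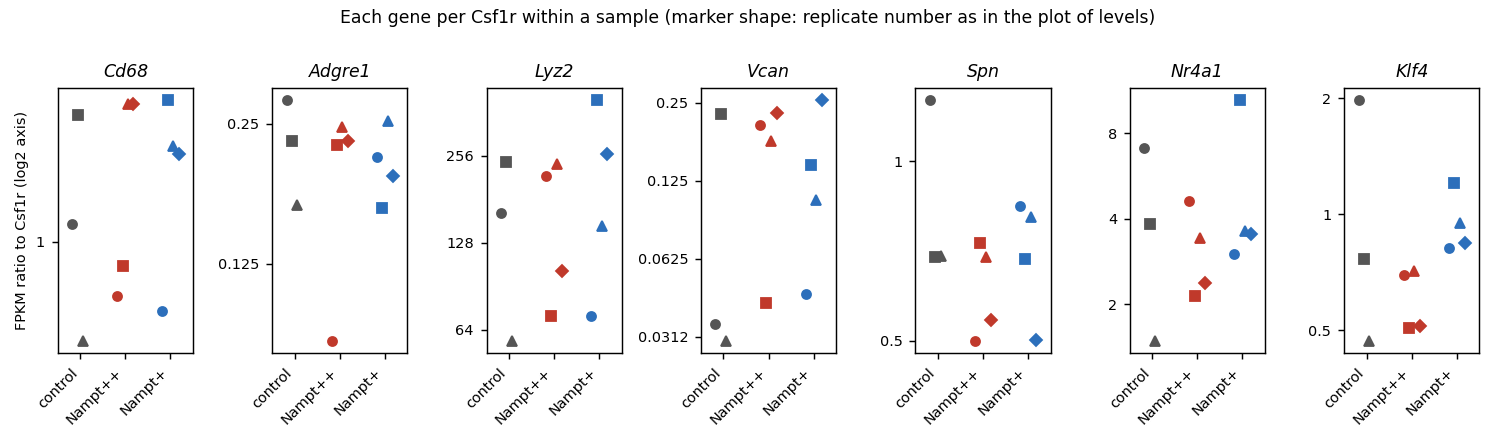
FPKM of each of 7 genes divided by that of Csf1r in the same sample, on a log2 axis that differs between panels, with a point for each sample coloured by group. Klf4 lies between 0.505 and 0.710 in the Nampt++ samples and between 0.820 and 1.21 in the Nampt+ samples, with the controls on either side.

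The members differed in how their levels went together across samples. The values below are over 11 samples, of which 8 come from 4 rats, so they describe these samples and carry no p. Csf1r, Cd68, Adgre1 and Spn were positively correlated in all 6 pairs on log2 CPM, counts scaled by library size and the TMM factor. Pearson's r was 0.86 for Spn and Adgre1 (Spearman's rho 0.82) and 0.81 for Cd68 and Adgre1 (rho 0.84). It was 0.80 for Csf1r and Cd68 (rho 0.90) and 0.79 for Csf1r and Adgre1 (rho 0.87). Without the 2 samples farthest from the median of the first named gene these were 0.72, 0.89, 0.77 and 0.62. The other pairs were Csf1r and Spn, with r of 0.74 (rho 0.71) and 0.46 without the 2 farthest samples, and Cd68 and Spn, with r of 0.51 (rho 0.46) and 0.71. Lyz2 and Vcan went together with r of 0.75 (rho 0.79), and 0.63 without the 2 farthest samples. Between these sets the values ran from -0.51 for Lyz2 and Spn (rho -0.50) to 0.61 for Cd68 and Vcan (rho 0.55), the latter above that of Cd68 and Spn. Klf4 went with Spn at r of 0.56 (rho 0.76), also above that pair, and with Adgre1 at 0.47 (rho 0.64). With Csf1r and Cd68 its r was 0.08 (rho 0.34) and 0.12 (rho 0.24), so the sets are not sharply bounded.

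The genes most like each member in level over the 11 samples were taken from 4923 genes with a mean of at least 10 FPKM. For Csf1r these were Hint2 (r 0.92), Mal (r 0.91) and Tgfbi (r 0.90), and for Cd68 Psap (r 0.95), Anxa4 (r 0.95) and Anxa5 (r 0.95). Psap encodes the precursor of proteins that help lysosomal enzymes break down lipids. For Adgre1 they were Pld4 (r 0.97) and Gjb2 (r 0.96), and for Spn LOC103694852 (r 0.94), Gjb2 (r 0.93) and Jup (r 0.91), so Gjb2, a gap junction gene, was near both. For Lyz2 they were Ctsc, the protease that activates the enzymes of neutrophil granules (r 0.97), Arhgap18 (r 0.97) and Diaph1 (r 0.97). For Vcan they were C3, the central complement component (r 0.93), Fcnb, a lectin of neutrophil and monocyte granules (r 0.90), and Slc39a1 (r 0.90). For Klf4 they were Rcn1 (r 0.90), Retsat (r 0.85) and RF00054 (r 0.82), and for Nr4a1 Pfdn2 (r 0.87), Spint2 (r 0.85) and Surf2 (r 0.85). By rank Surf2 was much less like Nr4a1, with Spearman's rho of 0.31 against 0.71 for Pfdn2 and 0.66 for Spint2. The lowest sample of Surf2 had 0 FPKM.

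Several of these genes were set beside the summed level of 10 neutrophil markers. S100a9 and S100a8 made up most of that sum, with 25724 and 12479 FPKM in the Nampt++ sample of rat 1. Other markers of the list did not all follow them. Retnlg had 269 FPKM in that sample and was highest, at 494 FPKM, in the Nampt+ sample of rat 4. The sum was 7327, 14223 and 2131 FPKM in controls 1 to 3. It was 39424, 2969, 12849 and 9412 FPKM in the Nampt++ samples and 3781, 15622, 5138 and 14160 FPKM in the Nampt+ samples. The list ranged from 2131 to 14223 FPKM in controls, from 2969 to 39424 at Nampt++ and from 3781 to 15622 at Nampt+, and 1 of its genes, Ltf, stayed under 1 FPKM in every sample. The 3 samples with the lowest sums, control 3, rat 2 at Nampt++ and rat 1 at Nampt+, were also the 3 lowest in Lyz2. The 2 samples with the highest sums, rat 1 at Nampt++ and rat 2 at Nampt+, were the 2 lowest in Adgre1 and in Spn. The part of neutrophils in these levels was not tested. No neutrophil marker was called in any comparison. Of the markers of T cells, B cells, NK cells, dendritic cells, eosinophils, plasma cells and erythroid cells none was called either. In the list of basophils and mast cells Ms4a2, a chain of the IgE receptor, was called higher at Nampt+ than at Nampt++ (log2 fold change 1.94, SE 0.61, mean 1.31 FPKM), and in that of platelets Ppbp, a chemokine, was called lower at Nampt++ than in controls (log2 fold change -1.09, SE 0.40). Of the 6 platelet markers 4 had values above 0 and 2 below in that comparison, with a median log2 fold change of 0.19, so Ppbp went against most of its list.

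**Figure D5:**
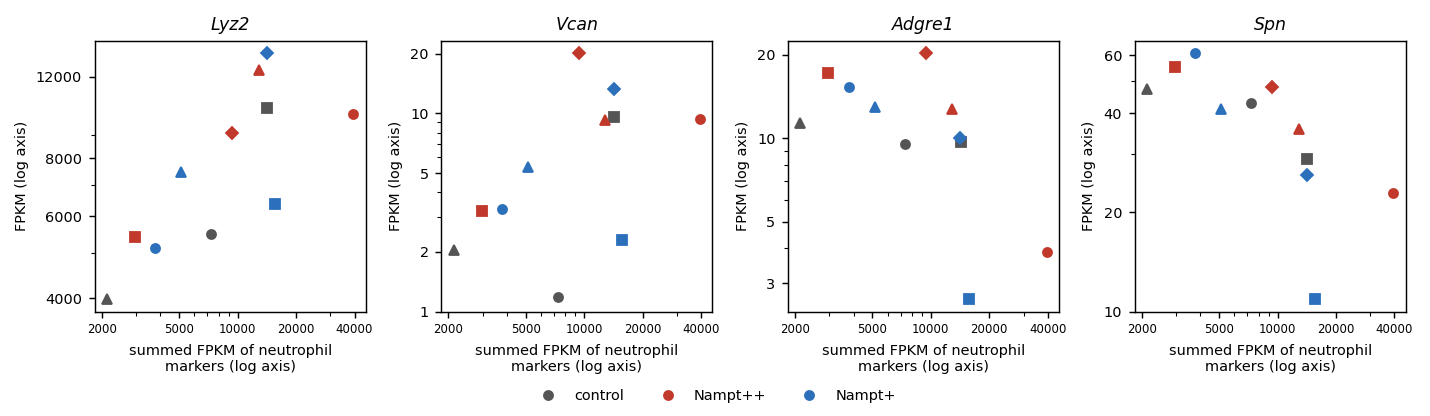
FPKM of Lyz2, Vcan, Adgre1 and Spn against the summed FPKM of the neutrophil markers, with both axes on a log scale and a point for each of the 11 samples coloured by group and shaped by replicate number. Samples low in the sum are low in Lyz2, and the 2 samples highest in the sum are lowest in Adgre1 and Spn.

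Genes of the monocyte subsets showed no call in any comparison. Of the classical subset, 5 of 8 listed genes were found and all 5 were tested, among them Cd14, F13a1, Fn1 and Clec4e, and Ccr2, Plac8 and Cd36 were not analysed here. All 5 had values below 0 between Nampt+ and Nampt++, with a median log2 fold change of -0.22. All 5 were above 0 between Nampt++ and controls, with a median of 0.56. The Nampt++ samples are in both comparisons, so these signs are not independent. Cd14, a receptor for bacterial lipopolysaccharide, was at -0.76 (SE 0.34) between Nampt+ and Nampt++, with an unadjusted p of 0.0525 by edgeR. It had 65.7, 92.0, 124 and 253 FPKM at Nampt++ and 77.3, 49.1, 78.8 and 87.7 FPKM at Nampt+, so the groups overlapped.

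Of the non-classical subset, 7 of 8 listed genes were found and 6 were tested between Nampt+ and Nampt++, of which 3 were above and 3 below 0, with a median log2 fold change of -0.02. Itgal, an integrin chain, was the most abundant of these at a mean of 81.9 FPKM, followed by Fcgr3a, an antibody receptor, at 21.4 FPKM and Eno3 at 13.7 FPKM. Fcgr3a had 3.63 FPKM in the Nampt++ sample of rat 1 and 4.74 FPKM in the Nampt+ sample of rat 2, the 2 samples lowest in Spn and Adgre1. In FPKM, Itgal was lowest in the Nampt+ sample of rat 2, at 31.3 FPKM, though not once scaled by the TMM factor. In the Nampt++ sample of rat 1 it had 89.6 FPKM, above its mean, so the list was not low as a whole there.

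The partners of Csf1r were not called either. Its ligand Csf1 had a mean of 60.3 FPKM, and the other ligand, Il34, stayed under 1 FPKM in every sample. Of 6 genes tested in this list, 5 had values below 0 between Nampt+ and Nampt++ and all 6 values above 0 between Nampt++ and controls. Here too the Nampt++ samples are shared, so the signs are not independent. Tyrobp, an adaptor of myeloid receptors, had the highest mean at 921 FPKM, with log2 fold changes of -0.24 (SE 0.45) and 0.54 (SE 0.56) in these comparisons. Csf3r, the receptor for the neutrophil growth factor, had 1072 FPKM in the Nampt++ sample of rat 1 and 42.4 to 283 FPKM in the others.

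None of 10 transcription regulators of monocytes was called. Spi1, which encodes PU.1, had log2 fold changes of -0.52 (SE 0.45) between Nampt+ and Nampt++ and of 0.76 (SE 0.55) between Nampt++ and controls. Cebpb, at a mean of 411 FPKM, and Klf2, at 276 FPKM, stood at 0.01 (SE 0.50) and 0.12 (SE 0.24) between Nampt+ and Nampt++.

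All 8 lysosome genes had values below 0 between Nampt+ and Nampt++ and above 0 between Nampt++ and controls, as Cd68 did, and none was called. Both comparisons use the same Nampt++ samples, so these signs are not independent results. Their medians were -0.29 and 0.38, beside -0.0002 and 0.0018 over all genes tested. Ctsb, a protease, had the highest mean at 609 FPKM, followed by Psap at 344 FPKM and Grn, which encodes progranulin, at 199.8 FPKM. The largest of these values was that of Lamp2, a membrane protein of lysosomes, at -0.51 (SE 0.39) and 0.71 (SE 0.52).

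Of the tissue macrophage genes, 2 reached 1 FPKM on average, the scavenger receptor Msr1 and Gpnmb. Msr1 was called lower at Nampt+ than at Nampt++, with a log2 fold change of -1.42 (SE 0.57) and an unadjusted p of 0.0344, while its adjusted p by edgeR was 0.9996. It had 1.13, 0.672, 2.05 and 4.20 FPKM at Nampt++ and 0.50, 0.541, 0.356 and 1.27 FPKM at Nampt+, levels at which the groups overlapped. Gpnmb, at a mean of 35.6 FPKM, was at -0.14 (SE 0.34).

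Of 12 immediate early genes, to which Nr4a1 also belongs by its behaviour in other cells, 2 were called. Fosb, an AP-1 subunit, was higher at Nampt+ than at Nampt++, with a log2 fold change of 1.23 (SE 0.39), an unadjusted p of 0.0122 and an adjusted p of 0.9996 by edgeR. It had 21.2, 26.1, 77.2 and 54.2 FPKM at Nampt++ and 103, 51.9, 127 and 135 FPKM at Nampt+. In FPKM the groups overlapped in rat 2 at Nampt+. FPKM is not scaled by the TMM factor, which was 0.577 in that sample, and with that scaling this overlap was absent. Egr1, a zinc finger factor, was lower than in controls at both Nampt++ and Nampt+, with log2 fold changes of -2.47 (SE 0.72) and -2.06 (SE 0.70) and unadjusted p by edgeR of 0.0093 and 0.0194. Controls had 561, 834 and 99.4 FPKM and the CIA samples between 56.5 and 161 FPKM, so controls 1 and 2 were high and control 3 lay within the range of the CIA samples. Nr4a1, with 241, 161 and 101 FPKM in these controls, did not share this pattern: its log2 fold changes against controls were 0.08 and 0.19.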

How the data were processed

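RNA of WBCs was sequenced as poly(A) libraries in paired-end reads. The extraction text of the labels speaks of retinas, in conflict with the labelled source, and the source was followed. The submitters' processing notes name Cutadapt 1.9, HISAT2 2.0.4 and StringTie 1.3.4, and the genome build and the way reads were counted are not given in the sources used here. Counts per gene were deposited by the authors without normalization. FPKM values were deposited by the authors, scaled by gene length and sample total, and 0.0001 was read as 0.

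Each pair of groups was fitted with edgeR 4.0.16 (quasi-likelihood test, TMM) under R 4.3.3, on genes with a mean of at least 1 FPKM over the samples compared; p values were adjusted over all genes tested by Benjamini and Hochberg's method. Genes were called at a ratio of mean FPKMs over 2 or under 0.5 with an unadjusted p under 0.05, the thresholds of the study. All 8 members passed the filter in each comparison. For each member the mean log2(FPKM + 1) of the groups was also set against all relabellings (exact permutation, two-sided). Alternatives were RLE and upper quartile scaling, leaving out haemoglobin genes, DESeq2 1.42.0, limma 3.58.1 with pseudocounts of 1 and 0.1, other filters, all groups in one fit, a replicate block and leaving out each sample. The procedure was checked on simulated counts. The members and lists were chosen with earlier results of these data known.

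Named genes were the members, related genes that could share reads with them, called genes and the 3 most abundant of each list, and the 3 genes most correlated with each member in log2 CPM. The lists of markers of other cells are given by their counts and called genes. A few genes that this rule names are not reported here.

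The study's methods say that 4 CIA rats were sampled at both statuses, without numbering them. Same-numbered Nampt++ and Nampt+ samples were taken as 2 samplings of the same animal, from the rat number in the sample descriptions. Over 11242 genes, deviations from the group means correlated at -0.19 in rat 1, -0.20 in rat 2, 0.19 in rat 3 and 0.13 in rat 4. Controls share only a number with them. With totals of 65340027 to 85819418 counts, counting error is small, and precision is set by how few rats there were.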

Additional observations from a re-analysis of the deposited data

Results flagged for a closer look

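Cd68 in the Nampt+ group stood out because a single sample lay far from the others. The Nampt+ sample of rat 2 had 22.2 FPKM, and on the log2 scale the gap to the next sample was 0.960 of the range of the group, above the critical value of 0.83 for 4 samples. By chance about 1 in 20 groups passes this value, and 16 groups were looked at. In the same sample haemoglobin genes took 42.8% of counts and the TMM factor was 0.577. FPKM is not scaled by that factor. With counts scaled by it the sample was still the lowest of its group, but the gap fell slightly under the critical value. The part of these in the level of Cd68 was not tested.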

How the results depend on the processing

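The number of rats limits these data: with 4 rats against 4 or 3, standard errors of 0.20 to 0.86 on the log2 scale leave changes of moderate size undetected. Of the alternative values of the members' log2 fold changes, 368 kept their direction and side of the threshold, 4 moved past it and 33 changed sign, and the cause was not tested.

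Genes called between Nampt+ and Nampt++ numbered 72, and 295 without a filter, 19 at a mean of at least 10 FPKM, 56 with the rat as a replicate block in edgeR, 123 with the block in limma, and 58 to 165 on leaving out a sample. The block called no member and changed no other call of a member. Between Nampt++ and controls they numbered 77, and 120 by DESeq2, 145 and 140 by limma with pseudocounts of 1 and 0.1, 306 without a filter, 25 at a mean of at least 10 FPKM and 53 to 462 on leaving out a sample. Between Nampt+ and controls they numbered 56, and 261, 14 and 49 to 136 under the last 3 of these. At an adjusted p under 0.05, edgeR called 0 genes in each comparison (256, 176 and 98 at an unadjusted p under 0.05), and DESeq2 called 5, 5 and 4. Higher filters leave fewer genes to test, Vcan among those left out.

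Members called went from 0 to 1 in 4 settings, each time Vcan: without Nampt+ replicate 4 (range 0 to 1 on leaving out a sample), and against controls in limma with a pseudocount of 1 at Nampt++, and without control 2 at Nampt++ and at Nampt+ (range 0 to 1 for each).

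Between Nampt+ and Nampt++ the log2 fold change of Nr4a1 was -0.0155, -0.0156 and -0.0155 in limma with a pseudocount of 1, of 0.1 and with the replicate block. Between Nampt++ and controls that of Spn was -0.0191 and -0.0208 in limma and -0.0116 at a mean of at least 10 FPKM. On leaving out a sample, values that changed sign ranged between Nampt+ and Nampt++ from -0.29 to 0.12 for Lyz2, -0.10 to 0.22 for Nr4a1, -0.0038 to 0.26 for Klf4 and -0.68 to 0.022 for Spn. Between Nampt++ and controls they ranged from -0.059 to 1.05 for Lyz2, -0.28 to 0.38 for Nr4a1, -0.54 to 0.17 for Klf4 and -0.25 to 0.26 for Spn. Between Nampt+ and controls they ranged from -0.16 to 0.96 for Lyz2, -0.16 to 0.48 for Nr4a1, -0.38 to 0.32 for Klf4, -0.32 to 0.13 for Csf1r, -0.38 to 2.03 for Vcan, -0.18 to 0.39 for Cd68 and -0.38 to 0.12 for Adgre1.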
